A study of Mus musculus with 17 samples.

Results

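Wnt signaling genes were followed in cells cultured from the lungs of mice with or without Ephb4 deletion. The labels call the cells fibroblasts, but macrophage markers summed to more counts than fibroblast markers in most libraries. Gene length was not taken into account in these sums. The cultures are named here by their group. The 10 genes were taken by symbol from a deposited count table of 55421 genes. They are Axin2, a negative feedback gene of the canonical pathway, the ligands Wnt2, Wnt5a and Wnt11, the receptors Fzd1 and Fzd2, the secreted modulators Sfrp1, Sfrp2 and Dkk3, and Lef1, a DNA-binding partner of β-catenin. All 10 were in the table, and 7 of them passed the filter on low counts described below.

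The libraries came from 17 mice with floxed Ephb4 alleles and the Col1a2-CreERT2 transgene, in which the Cre recombinase is driven by a type I collagen promoter and acts only after a tamoxifen compound is given. Ephb4-CKO mice received 4-hydroxytamoxifen (1 mg per day on 5 days, from 4 weeks of age), and Ephb4 control mice, which carry the same alleles and transgene, received corn oil vehicle. At 6 weeks of age, mice were given intratracheal bleomycin at 1.2 U/kg, a drug that causes lung injury with later fibrosis, or PBS, and lungs were taken on day 14. Among Ephb4 control mice 4 received PBS and 4 bleomycin, and among Ephb4-CKO mice 5 received PBS and 4 bleomycin, each mouse giving 1 library of total RNA from cells grown in serum and passaged once, with no sort described. By the labels every group held both sexes, with more females than males in the Ephb4 control PBS group and more males in the Ephb4-CKO PBS group. Numbers of mice within a group were given here in the order of the records and pair no animals.

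Wnt proteins are secreted ligands that bind Frizzled receptors. In the canonical branch this stabilizes β-catenin, which enters the nucleus and acts with TCF/LEF factors on genes such as Axin2, and Axin2 in turn promotes β-catenin degradation. Wnt5a and Wnt11 are best known for signaling that does not need β-catenin, while Sfrp proteins bind Wnt ligands outside the cell. In the lung, Wnt ligands are made largely by mesenchymal cells, and the pathway is known for its roles in development, epithelial repair and fibrosis.

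The depth was 66540022 to 120554468 counts per library (median 93075927) and did not separate the groups. The labelled cell type was checked against marker genes. Fibroblast markers (14 genes, Col1a1 and Pdgfra among them) summed to 7414 to 13870 CPM (counts scaled to a common library total) in the control libraries after bleomycin and 17.3 to 9287 CPM after PBS, and in the CKO libraries to 23.4 to 2068 CPM after bleomycin and 48.8 to 2577 CPM after PBS. Macrophage markers (19 genes, Lyz2 and Cd68 among them) were abundant in every group, with sums from 1292 to 19830 CPM in the control and 19830 to 45430 CPM in the CKO libraries after bleomycin, and from 10620 to 48670 CPM after PBS, so the cultures were not fibroblasts alone by these markers. Ephb4 itself ranged from 2.32 to 33.5 CPM in Ephb4 control mice and from 4.01 to 23.6 CPM in Ephb4-CKO mice after PBS, and from 13.2 to 65.1 CPM and from 4.93 to 14.0 CPM after bleomycin. The ranges overlapped after both treatments, so Ephb4 RNA did not separate the genotypes in these cultures. In 3 of the bleomycin libraries, control mouse 2 and CKO mice 1 and 2, Xist and Y-linked genes went against the recorded sex. In cultures of mixed cells, fewer cells of a type and less RNA per cell cannot be told apart.

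Sequence upstream of 4 of the genes is shown to place the canonical pathway's DNA element beside their levels: Axin2 and Lef1 as pathway readouts, Wnt2 because its level followed that of Axin2 most closely, and Wnt11 because its window holds the element. For Lef1, start site 4 is shown because its window alone among the Lef1 windows holds the element, and this site lies inside the gene. The sequences are the 250 bases before the RefSeq start site on build GRCm38.p6, 5′ to 3′ on the gene's strand, with the TCF/LEF core CTTTGA or its reverse complement TCAAAG in capitals.
Axin2, chr11:108920099-108920348, forward strand: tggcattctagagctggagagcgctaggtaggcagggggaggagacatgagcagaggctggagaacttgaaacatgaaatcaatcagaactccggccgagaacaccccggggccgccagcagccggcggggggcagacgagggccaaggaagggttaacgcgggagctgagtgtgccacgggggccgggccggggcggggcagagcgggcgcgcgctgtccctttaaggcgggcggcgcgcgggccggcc
Wnt2, chr6:18030446-18030695, reverse strand: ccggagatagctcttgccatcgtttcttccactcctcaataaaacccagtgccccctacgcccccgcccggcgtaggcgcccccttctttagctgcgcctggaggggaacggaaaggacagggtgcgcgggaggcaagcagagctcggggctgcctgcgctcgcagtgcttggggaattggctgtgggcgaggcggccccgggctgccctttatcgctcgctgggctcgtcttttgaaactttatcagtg
Wnt11, first start site, chr7:98834862-98835111, forward strand: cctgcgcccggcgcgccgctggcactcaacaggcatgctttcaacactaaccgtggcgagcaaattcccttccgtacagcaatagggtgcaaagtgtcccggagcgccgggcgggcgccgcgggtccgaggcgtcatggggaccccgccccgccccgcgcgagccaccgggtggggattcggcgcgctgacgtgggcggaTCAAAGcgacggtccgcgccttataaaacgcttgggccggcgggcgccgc
Lef1, start site 4, chr3:131156044-131156293, forward strand: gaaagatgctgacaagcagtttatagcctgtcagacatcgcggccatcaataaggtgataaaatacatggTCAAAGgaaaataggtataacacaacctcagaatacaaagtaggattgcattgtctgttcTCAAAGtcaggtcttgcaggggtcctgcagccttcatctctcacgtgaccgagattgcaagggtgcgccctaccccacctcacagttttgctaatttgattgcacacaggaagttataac
The search covered 300 bases, from 250 before to 50 after each start site. The Axin2 and Wnt2 windows held no match to these 6 letters. The Wnt11 window held 1, beginning 50 bases before the start site, and Lef1 window 4 held 2, beginning 180 and 120 bases before it. Fzd1 also had 1, beginning 242 bases before its start site, and the Sfrp2 window, the second Wnt11 window and the other 3 Lef1 windows had 0. Over all RefSeq promoter windows of this length, 5257 of 32851 (16%) held a match on either strand. A match to so short a word is a description of the sequence and no evidence of a bound site, and 6 of the 10 genes had a window.

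Axin2 (ENSMUSG00000000142, build GRCm38, chromosome 11 from 108920349 to 108950783, forward strand) was highest in Ephb4 control mice given bleomycin and lowest in Ephb4-CKO mice given bleomycin. It was 14.9, 2.996, 5.88 and 11.05 CPM in the 4 Ephb4 control mice given bleomycin. The 4 Ephb4-CKO mice given bleomycin had 0.0913, 0.610, 0.479 and 0.176 CPM. No library of one group reached the other, and the group means were 8.70 ± 5.29 (SD, n = 4) and 0.339 ± 0.246 CPM (SD, n = 4). After PBS, Ephb4 control mice had 0.228, 0.664, 8.64 and 0.180 CPM, and Ephb4-CKO mice had 0.804, 0.153, 2.57, 0.221 and 0.693 CPM. Mouse 3 of each PBS group stood above its companions, and the PBS ranges overlapped each other.

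Axin2 differed by a log2 fold change (log2FC) of -4.68 (standard error, SE, 1.38) between Ephb4-CKO and Ephb4 control mice after bleomycin, with an unadjusted p of 0.00401 and an adjusted p of 0.197 (quasi-likelihood F test of edgeR, Benjamini-Hochberg, 10481 genes). The gene therefore did not pass the threshold of 0.05 in this test. DESeq2, run as an alternative without a batch term, gave the same fold change with an adjusted p of 0.00589. Axin2 passed the filter only through the control bleomycin libraries, where it was high, so these tests are no support for a difference. The Axin2 difference was -2.20 (SE 1.03) with the fibroblast marker score of each library as a covariate, a score that did not overlap between the groups compared. For bleomycin against PBS in Ephb4 control mice, the log2FC of Axin2 was 1.84 (SE 1.22, adjusted p = 0.478 in edgeR), and without Ephb4 control PBS mouse 3 it was 4.63 (SE 1.22, adjusted p = 0.0715 in edgeR). Without that mouse the Ephb4 control PBS mean was 0.357 CPM in place of 2.43 CPM. In the other direction, this log2FC of Axin2 was 1.45 without Ephb4 control PBS mouse 4 and 0.384 with the fibroblast score as a covariate.

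**Figure D1:**
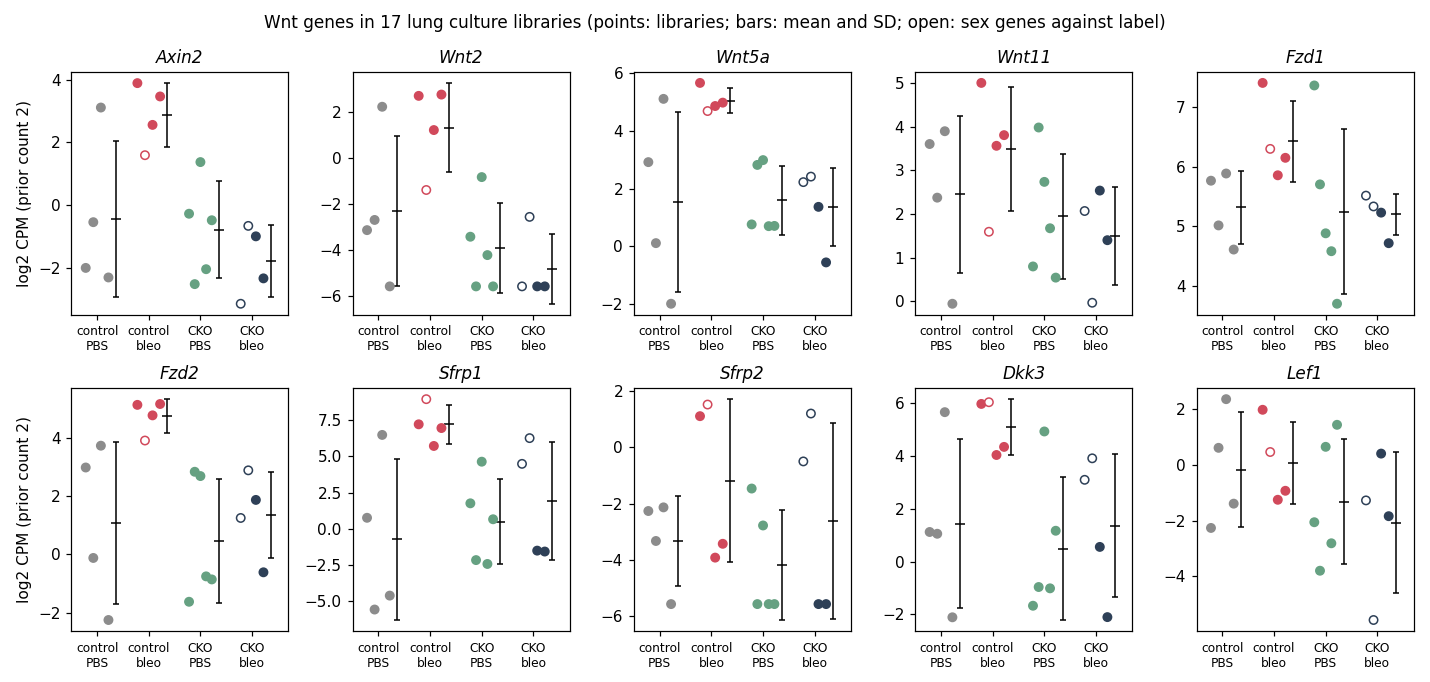
Levels of the 10 Wnt genes in each of the 17 libraries, by group (horizontal axis), as log2 CPM with a prior count of 2 (vertical axis). Points are libraries, open points are the 3 whose sex genes went against the label, and bars give the mean and SD. The 4 Ephb4 control bleomycin libraries lie above all 4 Ephb4-CKO bleomycin libraries in 6 of the 10 genes, and 1 Ephb4 control PBS library (mouse 3) lies near them in most genes.

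Among the ligands, Wnt5a, which acts mainly without β-catenin (ENSMUSG00000021994, chromosome 14 from 28504750 to 28527448, forward strand), was highest in Ephb4 control mice given bleomycin. The 4 Ephb4 control mice given bleomycin had 50.6, 25.7, 29.0 and 31.5 CPM, and the 4 Ephb4-CKO mice given bleomycin had 4.65, 5.31, 2.56 and 0.658 CPM. Every control library lay well above every CKO library. Its PBS levels were 7.53, 1.06, 34.5 and 0.230 CPM in Ephb4 control mice and 1.67, 7.04, 7.90, 1.60 and 1.61 CPM in Ephb4-CKO mice, so 1 Ephb4 control PBS library was at the level of the bleomycin libraries. Between genotypes after bleomycin the log2FC was -3.38 (SE 1.15, adjusted p = 0.210 in edgeR, 0.0341 in DESeq2), and that of bleomycin versus PBS in Ephb4 control mice was 1.66 (SE 1.08, adjusted p = 0.467 in edgeR). Without Ephb4 control PBS mouse 3 the second value was 3.58 (SE 1.10, adjusted p = 0.0911 in edgeR). Wnt5a, too, passed the filter only through the control bleomycin libraries, so its tests are no support for a difference.

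Wnt11 (ENSMUSG00000015957, chromosome 7 from 98835112 to 98855195, forward strand) varied within every group. It was 32.0, 2.996, 11.8 and 13.95 CPM in Ephb4 control mice and 4.17, 0.957, 5.78 and 2.62 CPM in Ephb4-CKO mice after bleomycin, and these ranges overlapped through Ephb4 control mouse 2, one of the libraries with discordant sex genes. The log2FC was -2.17 (SE 0.94, adjusted p = 0.229 in edgeR). After PBS, Wnt11 was 12.1, 5.16, 14.9 and 0.941 CPM in Ephb4 control mice and 1.72, 15.75, 6.64, 3.17 and 1.44 CPM in Ephb4-CKO mice, with no separation of the groups.

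Wnt2 (ENSMUSG00000010797, chromosome 6 from 17988940 to 18030585, reverse strand), a ligand of the embryonic and adult lung mesenchyme, was below 10 CPM in every library and did not enter the edgeR fit. The 4 Ephb4 control mice given bleomycin had 6.50, 0.364, 2.31 and 6.76 CPM. Of the 4 Ephb4-CKO mice given bleomycin, 3 had 0 counts and mouse 2 had 16 counts (0.150 CPM), so the groups did not overlap. An exact permutation test on log2 CPM, 2-sided, gave p = 0.0286, the smallest that 4 mice against 4 allow. Any gene whose groups separate fully gets this p, and 12.2% of all genes kept separated with CKO lower. The p is unadjusted, and the genes were chosen with earlier results known, so it is no support for a difference. After PBS, Wnt2 was 0.0938, 0.135, 4.68 and 0 CPM in Ephb4 control mice and 0.0731, 0, 0.546, 0.0331 and 0 CPM in Ephb4-CKO mice. Mouse 3 was again the highest in both PBS groups.

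Of the receptors, Fzd2 (ENSMUSG00000050288, chromosome 11 from 102604396 to 102608058, forward strand) was the only one of the 10 genes whose Ephb4 control libraries separated by treatment. It was 34.7, 14.9, 27.1 and 35.5 CPM after bleomycin and 7.85, 0.900, 13.2 and 0.190 CPM after PBS, a log2FC of 2.34 (SE 1.20, adjusted p = 0.383 in edgeR). Over all genes kept, 5.72% separated in this direction, so 1 of 10 is near the background. In Ephb4-CKO mice, Fzd2 was 2.36, 7.33, 3.63 and 0.634 CPM after bleomycin and 0.305, 7.09, 6.399, 0.574 and 0.532 CPM after PBS. After bleomycin the CKO libraries lay below all 4 control libraries, with a log2FC of -3.01 (SE 1.24, adjusted p = 0.223 in edgeR).

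Fzd1 (ENSMUSG00000044674, chromosome 5 from 4753839 to 4758035, reverse strand) was the one of the 10 genes above 10 CPM in all 17 libraries. After bleomycin it was 170, 78.6, 57.8 and 70.9 CPM in Ephb4 control mice and 45.6, 40.2, 37.4 and 26.2 CPM in Ephb4-CKO mice. These ranges did not overlap, while the log2FC was the smallest of the 7 genes tested, at -1.34 (SE 0.63, adjusted p = 0.248 in edgeR). Mouse numbers in the labels fall into series 11 and 12. With this series as a covariate the Fzd1 value was -0.67 (adjusted p = 0.560 in edgeR), and the log2FC of bleomycin against PBS in control mice was 0.19 in place of 1.15; all 4 control bleomycin mice are of series 12. After PBS, Fzd1 was 54.3, 32.2, 59.0 and 24.3 CPM in Ephb4 control mice and 165, 52.0, 29.4, 23.9 and 12.9 CPM in Ephb4-CKO mice. The Ephb4-CKO PBS mouse at 165 CPM placed the mean of its group above that of the Ephb4 control PBS mice, 56.6 ± 62.2 (SD, n = 5) against 42.5 ± 16.8 CPM (SD, n = 4).

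Of the secreted modulators, Sfrp1 (ENSMUSG00000031548, chromosome 8 from 23411502 to 23449632, forward strand), which encodes a secreted Frizzled-related protein, had the widest spread. Ephb4 control mice given bleomycin had 148, 491, 52.5 and 123 CPM. Ephb4-CKO mice given bleomycin had 22.3, 76.3, 0.332 and 0.317 CPM, and mouse 2 overlapped the control range. After PBS the values were 1.67, 0, 88.9 and 0.0200 CPM in Ephb4 control mice and 3.36, 0.204, 24.7, 0.166 and 1.56 CPM in Ephb4-CKO mice, with mouse 3 far above the others in both groups. Its log2FCs were -3.04 (SE 2.22) for CKO versus control after bleomycin and 3.17 (SE 2.24) for bleomycin against PBS in the control genotype, neither of which passed the test (adjusted p = 0.415 and 0.501 in edgeR). Without Ephb4 control PBS mouse 3 the second value was 8.57 (SE 2.82, adjusted p = 0.101 in edgeR). It was 2.25 without Ephb4 control bleomycin mouse 2 and 0.275 with the fibroblast score as a covariate. Without the 3 libraries with discordant sex genes, 2 of which are the highest Sfrp1 libraries of the CKO bleomycin group, the first value was -8.41 (SE 3.81, adjusted p = 0.305 in edgeR). Those 2 also had the highest fibroblast marker scores of that group.

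Dkk3 (ENSMUSG00000030772, chromosome 7 from 112116017 to 112159057, reverse strand), a divergent member of the Dickkopf family, was 63.0, 65.9, 16.5 and 20.4 CPM in Ephb4 control mice and 8.56, 15.1, 1.45 and 0.211 CPM in Ephb4-CKO mice after bleomycin. The groups did not overlap, but the gap between them was small. The log2FC was -2.71 (SE 1.72, adjusted p = 0.352 in edgeR), and -5.37 (SE 2.77) without the 3 libraries with discordant sex genes. The CKO mice left out for the latter value had the highest Dkk3 levels and fibroblast marker scores of their group. After PBS it was 2.16, 2.06, 50.8 and 0.210 CPM in Ephb4 control mice and 0.293, 0.492, 30.5, 0.475 and 2.23 CPM in Ephb4-CKO mice.

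Sfrp2 (ENSMUSG00000027996, chromosome 3 from 83766321 to 83774316, forward strand) and Lef1 (ENSMUSG00000027985, chromosome 3 from 131110471 to 131224356, forward strand) did not pass the filter either. Sfrp2 was 2.13, 2.84, 0.0452 and 0.0720 CPM in Ephb4 control mice and 0.685, 2.27, 0 and 0 CPM in Ephb4-CKO mice after bleomycin. Both groups held high and low libraries, and a 2-sided exact permutation test gave p = 0.543. Lef1 was 3.91, 1.36, 0.399 and 0.504 CPM in Ephb4 control mice and 0.393, 0, 1.30 and 0.258 CPM in Ephb4-CKO mice after bleomycin (p = 0.143, exact permutation test, 2-sided). Lef1 was the one gene of the 10 whose mean was highest in Ephb4 control mice given PBS, at 1.79 ± 2.29 CPM (SD, n = 4), of which mouse 3 contributed 5.10 CPM. Without that mouse the mean was 0.685 CPM. The other Ephb4 control PBS mice had 0.188, 1.51 and 0.361 CPM of Lef1, and the Ephb4-CKO PBS mice had 0.219, 0.0509, 1.55, 0.121 and 2.69 CPM. Sfrp2 was at most 0.207 CPM in the former group and at most 0.341 CPM in the latter.

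Levels of the 10 genes were compared with one another only after division by the exon length of each gene. On this scale, Sfrp1 (13.9 CPM per kb, mean of the 17 libraries) and Fzd1 (13.7) led, followed by Dkk3 (4.91), Fzd2 (2.62), Wnt11 (1.94) and Wnt5a (1.60). Axin2 (0.537), Wnt2 (0.565), Sfrp2 (0.245) and Lef1 (0.133) were the lowest. In the order of the group means, 9 of the 10 genes were highest in Ephb4 control mice given bleomycin, and in 9 of the 10 no group was separated from its neighbor in that order, the exception being Fzd2 between Ephb4 control bleomycin and Ephb4 control PBS.

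By comparison, 0 of the 7 genes tested passed an adjusted p of 0.05 in edgeR in any of the 5 comparisons, and 0 of all 10481 genes did (0% in each). After bleomycin, all 10 genes had a mean below the control mean in Ephb4-CKO mice, where 49.3% of all genes kept had a lower estimate. The 10 genes vary together, so this count is not one of independent genes. At an unadjusted p under 0.05, 4 of the 7 (Axin2, Wnt5a, Wnt11 and Fzd2) were lower, where 9.18% of all genes kept were lower at that threshold. DESeq2 called 2 of the 7, Axin2 and Wnt5a, as lower, where 2.44% of all genes it gave an adjusted p were called lower. The libraries did not overlap, with CKO lower, in 6 of the 10 (5 of the 7 that passed the filter), where 12.2% of all genes kept separated in that direction. Without the 3 libraries with discordant sex genes this count was 9 of 10 against a background of 23.2%, from 3 control and 2 CKO mice. At an unadjusted p under 0.05, 3 of the 7 were lower there, where 8.58% of all genes were. The 2 CKO mice left are of series 11, and all control bleomycin mice are of series 12. Their fibroblast marker scores were 3.59 and 0.395, against 4.55 and 6.83 in the 2 CKO mice left out. In that subset, genotype cannot be told apart from series or cell content. Within each of the 2 sorted runs of columns in the table, with 2 mice against 2, the libraries did not overlap in 8 of 10 (24.9% and 28.5% of all genes kept). The median log2FC of the 7 was -3.01, beside 0.00931 over all genes kept. Of the 7, Axin2, Wnt5a and Fzd2 passed the filter only through the control bleomycin libraries, where they were high, so the counts and the median over the 7 describe genes partly chosen by that group and are no support for a difference.

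**Figure D2:**
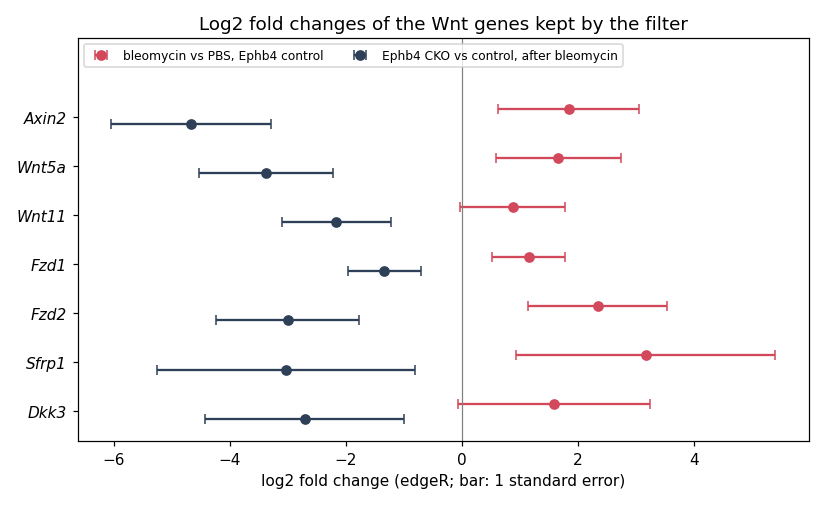
Log2 fold change (horizontal axis) of the 7 Wnt genes kept by the filter, from edgeR, with bars of 1 standard error. Red points compare bleomycin with PBS in Ephb4 control mice and dark points compare Ephb4-CKO with Ephb4 control mice after bleomycin. Every dark point lies below 0, from -4.68 (Axin2) to -1.34 (Fzd1), and every red point lies above 0; both comparisons use the same 4 Ephb4 control bleomycin libraries.

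Between bleomycin and PBS in the Ephb4 control genotype, 9 of the 10 genes had a higher mean after bleomycin, where 55.5% of all genes kept had a lower estimate. The 7 tested had a median log2FC of 1.66, which was 3.58 without Ephb4 control PBS mouse 3 and 0.38 with the fibroblast score as a covariate. None of the 7 had an unadjusted p under 0.05 in edgeR, where 6.28% of all genes kept were higher at that threshold, and 1 did in DESeq2. Because this comparison and that of the genotypes after bleomycin share the 4 Ephb4 control bleomycin libraries, their opposite signs are not independent. Without Ephb4 control PBS mouse 3, the count of genes whose libraries did not overlap was 7 of 10 (13.9% of all genes kept), and 5 of the 7 were higher at an unadjusted p under 0.05, where 12.7% of all genes were. Here too, 3 of the 7 passed the filter only through the control bleomycin libraries. Within the column runs, 2 mice against 2, the overlap count was 3 of 10 (19.1%) and 8 of 10 (21.5%). Ephb4 control PBS mouse 3 had a fibroblast marker score of 8.13, the mean log2 CPM of the 12 fibroblast markers kept, while the other Ephb4 control PBS mice had scores of 3.30, 0.888 and -0.21.

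In mice given PBS, the 10 genes overlapped between genotypes in all cases, and in edgeR the fold changes of the 7 tested ranged from -1.91 (Sfrp1) to 0.41 (Fzd1). Both ends turned on 1 library: Sfrp1 was at 3.43 without Ephb4 control PBS mouse 3, and Fzd1 at -0.54 without Ephb4-CKO PBS mouse 1. Likewise, all 10 overlapped between bleomycin and PBS in Ephb4-CKO mice, where the 7 had a median log2FC of -0.27, from -1.39 (Axin2) to 2.05 (Sfrp1). Without Ephb4-CKO PBS mouse 3 Axin2 was at -0.48, and without the 3 libraries with discordant sex genes Sfrp1 was at -4.22. The interaction of genotype and bleomycin, which tests whether the genotype difference itself differed with treatment, was negative in all 7 and in 50.3% of all genes kept. It was -3.23 (SE 1.69) for Axin2 and -1.75 (SE 0.86) for Fzd1, and the adjusted p from edgeR was at least 0.916 in each of the 7. Without Ephb4 control PBS mouse 3 the Axin2 interaction was -6.00 (SE 1.502, adjusted p = 0.389 in edgeR), and with the number series in the fit that of Fzd1 was -0.53. Without Ephb4-CKO PBS mouse 3 the interactions of Sfrp1 (1.06) and Dkk3 (1.26) were positive. A difference between the treatments in the effect of Ephb4 deletion was thus not shown for these genes.

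The genes did not vary independently over the 17 libraries. Axin2 and Wnt2 had a Pearson r of 0.94 in log2 CPM, Wnt5a and Fzd2 had 0.946, and Sfrp1 and Dkk3 had 0.868. Lef1 stood apart, with its highest r at 0.557 (Axin2), and Wnt11 and Sfrp2 had the lowest r of pairs without Lef1, at 0.0865. Among all genes kept, the 3 most like Axin2 were Atp2b4 (r = 0.945), Tbl2 (0.928) and Nxn (0.926), and the 3 most like Wnt5a were C1qtnf1, Smtn and Serpinh1 (0.983 to 0.986). Those most like Fzd2 were Ephb3 (0.978), another Eph receptor gene, Prkd1 and Bicc1. Dkk3 was most like Pdgfra (0.974), Col6a3 and Mrc2, and Pdgfra and Col6a3 are among the fibroblast markers. Sfrp1 was most like Rhoj (0.975), Bmper and Antxr1, Wnt11 most like Gstcd (0.939), Cxadr and Hmgb3, and Fzd1 most like Btg3 (0.952), Irgq and Zwint. These values are descriptions over libraries that share groups and cell content.

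**Figure D3:**
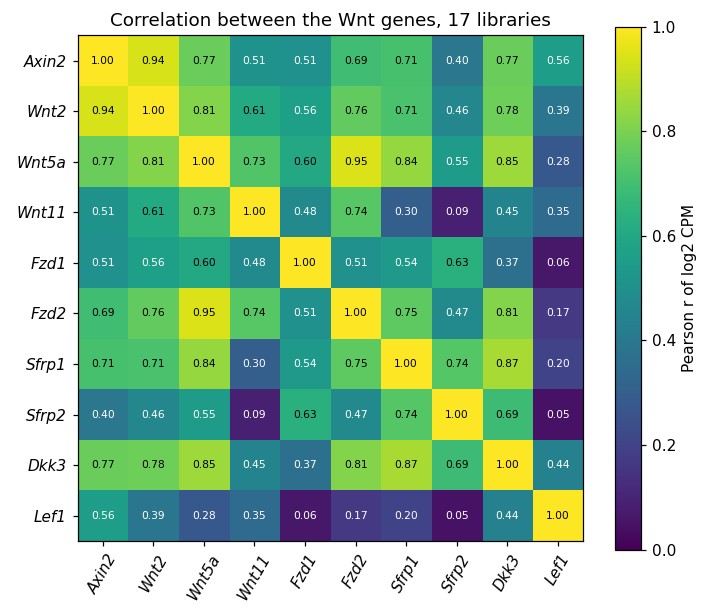
Pearson r of log2 CPM between each pair of the 10 Wnt genes over the 17 libraries, in the color scale and as numbers. Axin2 with Wnt2 (0.94) and Wnt5a with Fzd2 (0.946) are the closest pairs, and the row of Lef1 is the darkest, at 0.557 or less.

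The fibroblast marker score moved with most of these genes. All 12 fibroblast markers kept had a lower estimate in Ephb4-CKO mice after bleomycin (2 at an unadjusted p under 0.05 in edgeR, median log2FC -3.52), and none was at 0 in every library of a group. All 19 macrophage markers had a higher estimate there (5 at that threshold, median 1.14). Smooth muscle markers (6 genes, Myh11 and Cnn1 among them) also moved with this comparison: they summed to 459 to 496 CPM in the control and 3.24 to 314 CPM in the CKO libraries after bleomycin, and to at most 61.6 CPM after PBS. Their score was 5.96 to 6.15 in control mice given bleomycin and at most 5.36 in every other library, with 3.17 in Ephb4 control PBS mouse 3, and their part in the Wnt values was not tested. Epithelial and endothelial scores overlapped between genotypes after bleomycin. The fibroblast score was 8.00 to 8.90 in Ephb4 control mice and 0.395 to 6.83 in Ephb4-CKO mice after bleomycin, without overlap. Over the 17 libraries, Sfrp1 had an r of 0.952 with this score (rho 0.956), Dkk3 0.942 (0.934), Wnt5a 0.904 (0.904), Fzd2 0.848 (0.848), Axin2 0.838 (0.735) and Wnt2 0.823 (0.736). In permutation tests these 6 had adjusted p-values for r of at most 0.000343 over 20 relations (10 genes by 2 scores), from 100000 resamples whose smallest p is 1e-05. The resamples moved libraries freely across the groups, so the p-values for both scores also hold the differences between groups. The share of all genes kept with a like r was not taken. Without the 2 libraries farthest from the median score, r was between 0.808 and 0.939 in the 6 genes. Within each of the 2 sorted runs of columns in the table, r was between 0.787 (Wnt2) and 0.984 (Wnt5a). Since Ephb4 control bleomycin libraries sit together at the top of the score, r was also taken without them, and in the other 13 libraries was 0.694 for Axin2 and 0.924 for Sfrp1.

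Sfrp2 had an r of 0.667 with the fibroblast score (rho 0.621, adjusted p = 0.00765 in the permutation test), and 0.522 without the 2 farthest libraries. Fzd1 had an r of 0.518 (rho 0.686, adjusted p = 0.0436 in the permutation test) that fell to 0.359 (p = 0.193, permutation test) without those 2, so its linear relation rested on them. Wnt11 (r = 0.436, rho 0.449) and Lef1 (r = 0.338, rho 0.441) had adjusted p-values for r of 0.0929 and 0.194 in the permutation test.

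**Figure D4:**
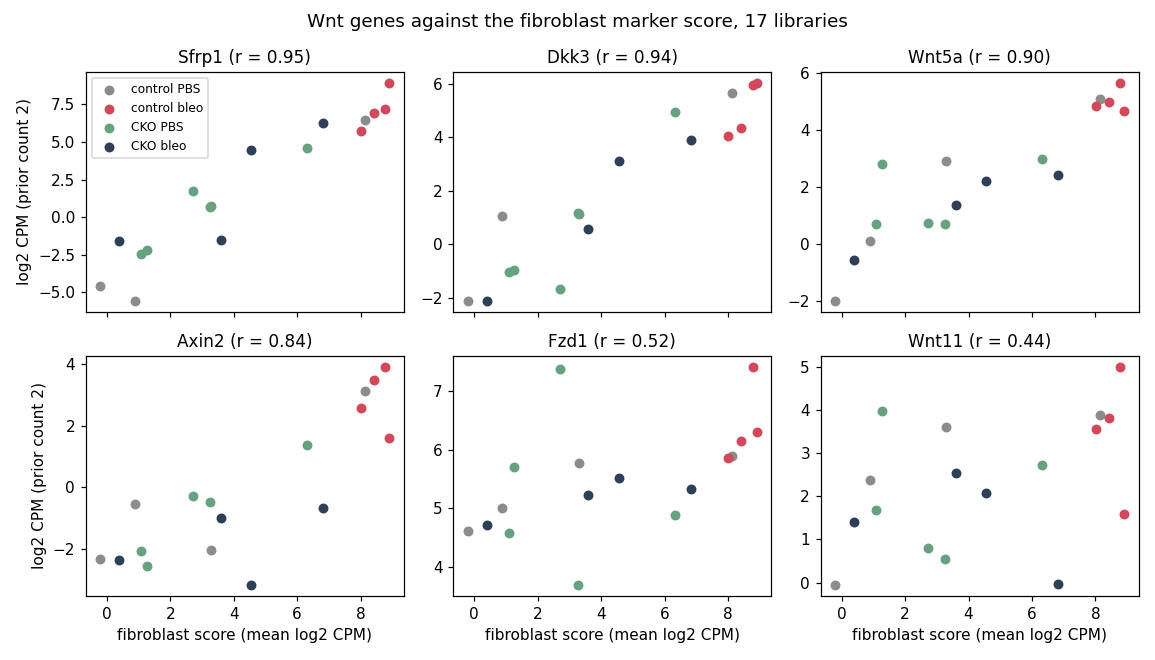
Level of 6 Wnt genes (vertical axis, log2 CPM with a prior count of 2) against the fibroblast marker score of the same library (horizontal axis, mean log2 CPM). Colors mark the 4 groups. Sfrp1, Dkk3, Wnt5a and Axin2 follow the score across all groups (r of 0.838 or more), while Fzd1 and Wnt11 do so loosely, with 1 Ephb4-CKO PBS library of Fzd1 far above the libraries of like score.

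The macrophage score, the mean log2 CPM of 19 genes, was 3.54 to 7.91 in Ephb4 control and 7.70 to 8.44 in Ephb4-CKO mice after bleomycin. Fzd1 had the strongest relation with it (r = -0.786, rho -0.843, adjusted p = 0.0001 for r in the permutation test), and its r was -0.753 without the 2 farthest libraries. Wnt2 had -0.652 (rho -0.727), Wnt11 -0.613 (rho -0.647), Wnt5a -0.600 (rho -0.733) and Axin2 -0.598 (rho -0.586), while Lef1 had -0.237 (rho -0.027). With Ephb4 control bleomycin mouse 1, whose score was the lowest, and Ephb4-CKO PBS mouse 5 left out, Wnt11 had an r of -0.408, Fzd2 of -0.430 and Sfrp2 of -0.277 (-0.516 in all 17 libraries), and none of the 3 reached an unadjusted p of 0.05 in the permutation test.

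Fits with a marker score as a covariate gave smaller differences between the genotypes after bleomycin. The fibroblast score did not overlap between these groups, so the values adjusted for it extrapolate. The part of cell content was not tested by them. With the fibroblast score, the log2FC was -2.20 for Axin2, -1.16 for Wnt5a, -1.63 for Wnt11, -0.89 for Fzd1 and -1.37 for Fzd2, while Sfrp1 (1.69) and Dkk3 (0.80) changed sign. With the macrophage score, Fzd1 was at -0.34 and Wnt11 at -0.86, and Axin2 at -3.71. None of the 7 had an adjusted p under 0.05 in either fit of edgeR. Whether the Wnt genes differed within fibroblasts was not tested, since each library holds all cells of a culture.

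Of the other genes of the pathway, 75 were listed in 7 groups, and 37 passed the filter. In edgeR, 0 of the 37 passed the adjusted threshold in any comparison. In Ephb4-CKO versus control mice after bleomycin, 30 of the 37 had a lower and 7 a higher estimate, where 49.3% of all genes kept had a lower one. Of the 37, 12 had an unadjusted p under 0.05, all lower (9.18% of all genes kept), and the median log2FC was -0.61. In the comparison of bleomycin with PBS in Ephb4 control mice, 25 had a higher estimate, where 55.5% of all genes kept had a lower one. Of the 37, 6 had an unadjusted p under 0.05, all higher (6.28% of all genes kept), and the median was 0.21. Some of the 37, Dkk2 and Lgr4 among them, passed the filter only through the control bleomycin libraries, where they were high. These counts and medians therefore describe genes partly chosen by that group and are no support for a difference.

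Wls, which carries Wnt ligands to the cell surface, had the smallest p of these genes. It was 248, 288, 321 and 407 CPM in Ephb4 control mice and 111, 172, 93.4 and 95.8 CPM in Ephb4-CKO mice after bleomycin. The groups did not overlap, and the log2FC was -1.42 (SE 0.33, unadjusted p 0.000581, adjusted p = 0.187 in edgeR). It was 191, 72.3, 146 and 95.4 CPM in Ephb4 control mice after PBS, below all 4 control bleomycin libraries, a log2FC of 1.32 (SE 0.33, adjusted p = 0.268 in edgeR).

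Among the ligands, 4 of 16 passed the filter. Wnt9a had 8.55, 3.01, 17.9 and 26.5 CPM in Ephb4 control mice and 1.82, 0.544, 2.24 and 0.669 CPM in Ephb4-CKO mice after bleomycin, a log2FC of -3.41 (SE 1.48), and Wnt7a had one of 0.50 (SE 1.39). Wnt9a did not overlap after bleomycin but reached 24.3 and 30.3 CPM in 1 mouse of each PBS group.

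Receptors and co-receptors had 12 of 14 genes kept, 10 of them with a lower estimate and 3 with an unadjusted p under 0.05, and a median log2FC of -1.25. Fzd8 was 11.2, 12.1, 10.7 and 10.8 CPM in Ephb4 control mice and 3.87, 5.90, 5.84 and 4.17 CPM in Ephb4-CKO mice after bleomycin, with little spread in either group (log2FC -1.18, SE 0.37, adjusted p = 0.205 in edgeR). Ryk, an atypical receptor with an inactive kinase domain, was 133 to 192 CPM in control and 4.53 to 69.4 CPM in CKO mice (log2FC -2.56, SE 1.00).

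Inhibitors, most of them secreted, had 3 of 10 genes kept. Dkk2 was 17.4, 21.8, 38.2 and 51.2 CPM in Ephb4 control mice and 3.84, 1.11, 0.246 and 0.0939 CPM in Ephb4-CKO mice after bleomycin, a log2FC of -4.60 (SE 1.51, adjusted p = 0.209 in edgeR). Kremen1, a membrane receptor for Dickkopf proteins, had one of -0.64 (SE 0.27). In the R-spondin module, 2 of 9 genes were kept: Lgr4, an R-spondin receptor, had a log2FC of -1.59 (SE 0.73), and Rspo3, an R-spondin ligand, had one of -2.15 (SE 1.69).

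Transducers, the genes that act inside the cell, had 12 of 17 kept and centered on 0 (median log2FC -0.02), with 3 lower at an unadjusted p under 0.05. Dvl1 and Dvl2, which relay the signal from Frizzled, had log2FC of -0.61 (SE 0.25) and -0.41 (SE 0.17). Of the feedback and target genes, 3 of 7 were kept. Ccn4 was 269 to 333 CPM in Ephb4 control mice and 0.211 to 49.3 CPM in Ephb4-CKO mice after bleomycin (log2FC -4.25, SE 1.81, adjusted p = 0.228 in edgeR), while Myc had a log2FC of -0.37 (SE 0.35).

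**Figure D5:**
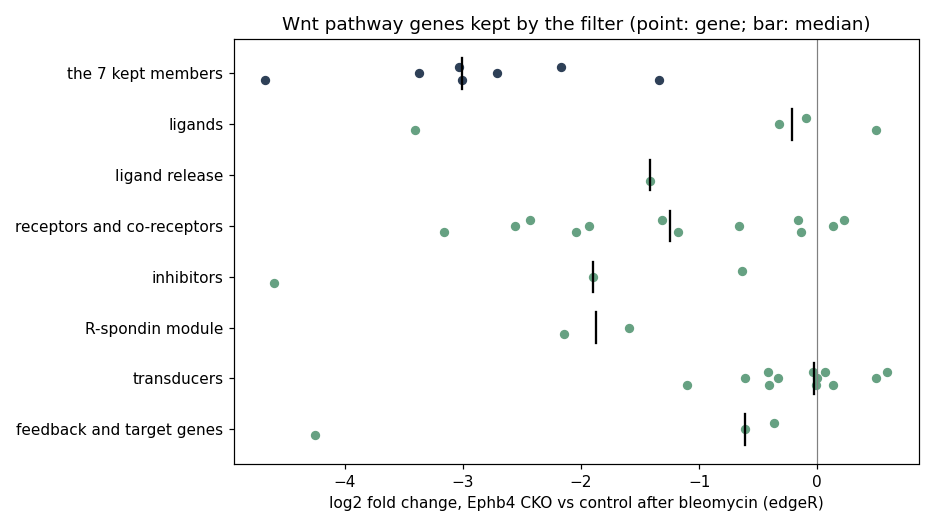
Log2 fold change of Ephb4-CKO versus Ephb4 control mice after bleomycin (horizontal axis, edgeR) for each Wnt pathway gene kept by the filter, by group of genes (vertical axis). Points are genes and bars are medians. The 7 members lie between -4.68 and -1.34, receptors spread from 0.23 to -3.16, and the transducers center near 0 (median -0.02).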

How the data were processed

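Total RNA-Seq was measured in lung cell cultures, labelled as fibroblasts, of 17 mice in 4 groups. The authors trimmed reads with Cutadapt (version 1.18 in the submitters' processing notes), aligned them to GRCm38 with HISAT2 2.1.0 and estimated genes with StringTie. The authors deposited whole-number counts per gene without normalization; these derive from transcript coverage, so overlapping or near-identical genes may be divided unevenly. The deposited count table holds 55421 genes.

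Counts were scaled to CPM with TMM library sizes. Genes above 10 CPM (by unscaled totals) in at least 2 libraries were kept (10481, the filter of the study's methods) and tested with edgeR 4.0.16 in R 4.3.3 (quasi-likelihood, 1 mean per group, all libraries, Benjamini-Hochberg adjustment, threshold 0.05). The SE of a fold change is its size over the square root of F, and the common dispersion was 0.311. The study's batch covariate could not be used because the sources used here do not give the batch of each library. Members not kept were compared by 2-sided exact permutation tests of log2 CPM (prior count of 2). Marker scores are mean log2 CPM, and correlations were tested with 100000 permutations. The procedure was tested on simulated data, where calls of most changed genes were required only at a dispersion below that of these data. It therefore does not give the power at the spread seen here. The depth bounds counting error only.

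The alternatives were DESeq2 1.42.0, limma 3.58.1 (voom), other scalings, filters, covariates and libraries left out; those by column run with DESeq2, and those on overlap and correlations without some libraries, were chosen after seeing the data. The named genes are the 10 members, Ephb4, the 3 genes most like each member kept, and from each of 7 Wnt gene lists the 2 with the smallest p after bleomycin. The members and lists were chosen with earlier results of these data known.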

Additional observations from a re-analysis of the deposited data

Results flagged for a closer look

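Within groups of 4 or 5 libraries, 10 of 40 combinations of gene and group had 1 library far from its companions by Dixon's criterion. Chance meets it in about 1 group of 20 where values are normally distributed and independent. CPM values are skewed and these genes vary together, so the count cannot be set against that rate. Mouse 3 of the Ephb4 control PBS group was high in Axin2 (8.64 CPM), Wnt2 (4.68 CPM), Sfrp1 (88.9 CPM) and Dkk3 (50.8 CPM). Mouse 3 of the Ephb4-CKO PBS group was high in the same 4 genes, at 2.57, 0.546, 24.7 and 30.5 CPM. Both mice had the highest fibroblast marker score of their group, 8.13 and 6.32. Wnt2 was 0.150 CPM in Ephb4-CKO bleomycin mouse 2, where the other mice of the group had 0 counts, and Fzd1 was 165 CPM in Ephb4-CKO PBS mouse 1, where the next mouse had 52.0 CPM. The part of cell content in these values was not tested.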

How the results depend on the processing

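After bleomycin, DESeq2 called 2 of the 7 Wnt genes tested (Axin2 and Wnt5a) where edgeR called 0. With the sorted column runs as a covariate, chosen after seeing the data, DESeq2 also called these 2. The cause was not tested. Both genes passed the filter only through the control bleomycin libraries, so these calls are no support for a difference. Every other alternative called 0 in each of the 5 comparisons, and leaving out 1 mouse at a time gave 0 to 0. Over 33 alternatives, the log2 fold changes after bleomycin kept their sign in 229 of 231 values, the exceptions being Sfrp1 and Dkk3 with the fibroblast score as a covariate; for bleomycin against PBS in the control genotype 230 of 231 did, the exception being Dkk3 (-1.87) with that score. Signs changed in 13 of 228 values for the genotypes after PBS, 19 of 227 for bleomycin in Ephb4-CKO mice and 4 of 224 for the interaction. Axin2 after bleomycin ranged from -5.15 (number series as a covariate) to -2.20. Sfrp1 ranged from -8.41 to 1.69. Over all genes kept, DESeq2 called 166 for bleomycin against PBS in the control genotype and 399 between genotypes after bleomycin, where edgeR called 0 (1494 and 2119 at an unadjusted p under 0.05). Of the 37 other Wnt genes DESeq2 called 1 and 3, and with the column runs 2 and 3. Over all genes kept, edgeR called 2 in the first comparison without Ephb4-CKO bleomycin mouse 2 and 1 in the second without Ephb4 control bleomycin mouse 2, and none of these was among the Wnt genes. All 4 Ephb4 control bleomycin mice carry numbers of series 12, as does 1 of the 4 Ephb4 control PBS mice. No paired analysis was possible because the replicate numbers were given in accession order and mark no pairs of mice.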

Other observations

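Lgr5, a receptor for R-spondins and a gene outside the naming rule, was named after its values were seen. It was 10.2, 1.09, 2.43 and 6.85 CPM in Ephb4 control mice given bleomycin and had 0 counts in all 4 Ephb4-CKO mice given bleomycin. After PBS it was 5.20 CPM in Ephb4 control mouse 3, 0.0804 CPM in mouse 1 and 0 in the other 2, and 0.216 CPM in 1 of 5 Ephb4-CKO mice. It did not pass the filter.

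Msln, a marker of mesothelial cells, was also looked at after the values were known. It was 402 CPM in Ephb4 control PBS mouse 1 and 602 CPM in Ephb4-CKO PBS mouse 2, and 2.31 to 98.8 CPM in the other libraries. In these 2 libraries Wnt11 was 12.1 and 15.75 CPM and Wnt7a was 50.1 and 73.2 CPM, with fibroblast marker scores of 3.30 and 1.26; the part of mesothelial cells in these values was not tested.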
